A study of Ambystoma mexicanum with 12 samples.

Results

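RHBG and RHAG encode Rh glycoproteins, membrane proteins that let ammonia and ammonium cross cell membranes. They were taken as the genes of that family for which the array annotation gave the symbol RHBG or RHAG, and each was read by 1 probe set, so the members are 2 probe sets of 20080 on the array. The array annotation names 8639 genes in all. RHCG, also of this family and on the array, was not part of the pair and is described further on. The pair was chosen from the family. The log2 levels of both genes in these 12 samples, and the rise of RHBG under both drugs, were already known. Their levels and the differences between treatments are therefore given as a description, with no test.

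Rh glycoproteins form a small family of channels related to the ammonium transporters of bacteria and plants. RHAG is the member of the red blood cell membrane, where it carries the Rh complex together with the anion exchanger SLC4A1 and the membrane skeleton. RHBG and RHCG belong to epithelia. In the mammalian kidney RHBG lies at the basolateral and RHCG mainly at the apical membrane of collecting duct cells, and in fish both are found in gill and skin, through which these animals release nitrogen as ammonia.

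The samples were forelimb blastemas, the growth zones that rebuild an amputated limb, from juvenile axolotls (Ambystoma mexicanum, total length 8.8 cm on average). Limbs were cut through the distal lower arm, animals were given DMSO (the vehicle), retinoic acid (RA, ligand of the retinoic acid receptors) or LE135 (by general knowledge an antagonist of retinoic acid receptor beta) from day 7, and blastemas with little stump were taken on day 14. Each treatment had 16 animals and 4 samples, each a pool of single forelimbs from 4 animals. By the series' design text DMSO limbs go on to regenerate normally, RA limbs duplicate proximodistal parts and LE135 limbs end short. Strain, exact age and dose are not stated in the sources used here.

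Values are log2 expression per probe set, and the lowest values of the arrays lay between 3.05 and 3.15. DMSO 4 and LE135 4 resembled the rest of their treatment least, with mean correlations of 0.978 and 0.986 with its other samples, against 0.989 or more for the other 10 samples. PRRX1, a transcription factor of limb mesenchyme, lay between 5.26 and 6.28 in all 12 samples. TP63, the transcription factor of basal epidermis, lay between 7.99 and 9.33 in its brighter probe set and between 6.67 and 8.41 in the other. The PRRX1 values were below the array medians (6.615 to 6.7), so this probe set alone does not establish how well mesenchyme was represented. A moderated F test in limma found a treatment difference in 2.68% of probe sets.

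RHBG was lowest in DMSO and higher under both drugs. In DMSO its log2 level was 7.28 in sample 1, 7.03 in sample 2, 7.28 in sample 3 and 6.16 in sample 4, a mean of 6.94 ± 0.54 (SD, n = 4). In RA it was 8.67, 8.87, 8.64 and 8.50 in samples 1 to 4, a mean of 8.67 ± 0.15. In LE135 it was 8.03, 8.10, 8.53 and 8.38, a mean of 8.26 ± 0.24. All 8 drug samples thus lay above all 4 DMSO samples, and the widest spread was within DMSO, where sample 4 was more than 0.8 below the others.

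The RHBG level in RA exceeded that in DMSO by 1.73 on the log2 scale (SE 0.22), or 3.32-fold, and that in LE135 exceeded DMSO by 1.32 (SE 0.22), or 2.50-fold. These differences share the DMSO samples. Among 20035 probe sets other than controls, 25 had a larger increase under RA and 41 under LE135. Groups were separated in the upward direction in 5.54% of probe sets for RA against DMSO and in 3.57% for LE135 against DMSO. Without DMSO 4 and LE135 4 both drug groups still lay above DMSO, at differences of 1.47 and 1.02, as did 11% of probe sets for RA and 13.2% for LE135.

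Between the drugs, RHBG was 0.41 higher in RA (SE 0.22). The SE of the RHBG differences pools all 3 treatments, with an SD of 0.54 in DMSO against 0.15 in RA and 0.24 in LE135. It thus understates the spread within DMSO and overstates that within RA and LE135. In the order of RHBG levels these neighbouring groups overlapped, since LE135 3 at 8.53 lay just above RA 4 at 8.50.

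**Figure D1:**
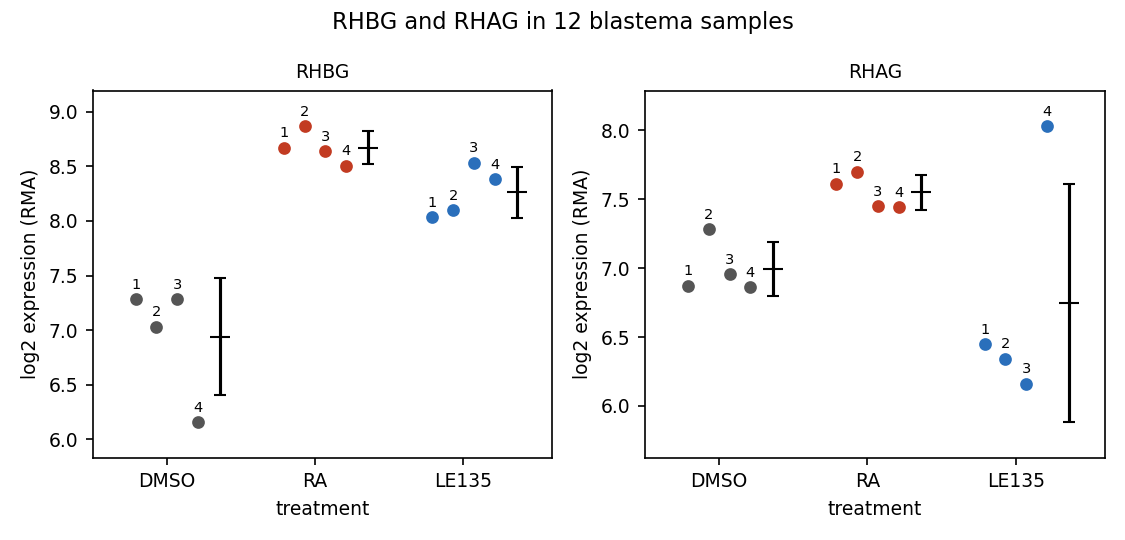
Log2 expression of RHBG (left) and RHAG (right) in each sample, with sample numbers beside the points and the mean ± SD of each treatment (n = 4) to the right of its points. For RHBG all drug samples lie above all DMSO samples. For RHAG the 4 RA samples lie above DMSO, and LE135 4 at 8.03 lies apart from the other LE135 samples at 6.16 to 6.45.

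RHAG had another pattern. In DMSO its log2 level was 6.87, 7.28, 6.95 and 6.86 in samples 1 to 4, a mean of 6.99 ± 0.20 (SD, n = 4). In RA it was 7.61, 7.70, 7.45 and 7.44, a mean of 7.55 ± 0.13, so each RA sample lay above each DMSO sample, as in 5.54% of probe sets. In LE135 it was 6.45, 6.34 and 6.16 in samples 1 to 3 and 8.03 in sample 4, a mean of 6.75 ± 0.86. The first 3 LE135 samples were the lowest of all 12, while LE135 4 was the highest of all.

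RHAG was higher in RA than in DMSO by 0.56 (SE 0.33), or 1.47-fold, which was smaller than the RHBG difference, and 598 probe sets had a larger increase. This SE pools the spread of all 3 treatments. LE135, outside this comparison, had the widest spread (SD 0.86, against 0.20 in DMSO and 0.13 in RA), so the SE overstates the spread within DMSO and RA. LE135 differed from DMSO by -0.25 (SE 0.33) with overlapping samples. RA exceeded LE135 by 0.80 (SE 0.33), also with overlap. LE135 4 set the size of the last differences. Without that sample the difference of LE135 from DMSO was -0.67 and that of RA from LE135 was 1.23. The 3 treatments then did not overlap, in the order RA, DMSO, LE135, and 1.05% of all probe sets were so separated in any order without that sample. With DMSO 4 left out as well they again did not overlap, as in 1.95% of all probe sets. The sample was left out with its RHAG value known, so these separations are a description. The 2 members therefore had the same order in RA and DMSO but lay on opposite sides of DMSO in LE135 samples 1 to 3.

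Since RHAG is a gene of red blood cells, its values were set beside other erythrocyte genes. ALAS2, the erythroid enzyme that starts haem synthesis, stood at 7.96, 8.03, 8.63 and 8.69 in DMSO samples 1 to 4, and at 8.18 to 8.57 in RA. In LE135 it was 7.79, 7.26 and 6.0 in samples 1 to 3 and 9.89 in sample 4. Within LE135, ALAS2 and RHAG thus ranked the samples alike, lowest in sample 3 and highest in sample 4. The other treatments did not share this. In DMSO, RHAG was lowest in sample 4 (6.86), where ALAS2 was highest (8.69). In RA, RHAG was lowest in sample 4 (7.44), where ALAS2 was highest (8.57). RA did not differ detectably from DMSO in ALAS2 (0.04, SE 0.61, limma adjusted p = 0.988), nor did LE135 (-0.60, SE 0.61, adjusted p = 0.766). These SE also pool all 3 treatments, with an SD of 1.62 in LE135 against 0.39 in DMSO and 0.16 in RA.

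The other erythrocyte genes moved less. Of 16 measured genes of the list, RHAG left out but ALAS2 included, 8 had LE135 4 above the other LE135 samples, as had 34.7% of all probe sets. The median excess of LE135 4 over the mean of the other LE135 samples was 0.12 across these 16 genes, against 1.71 for RHAG and 2.87 for ALAS2. In the list genes brighter than the array medians, ALAS2 aside, the excess ran from -0.30 (ALAD) to 0.40 (UROS). Of these, BLVRB, UROD, UROS, PPOX and BPGM had LE135 4 as the highest LE135 sample, and CPOX and ALAD had it as the lowest. The mean of the list, each gene centred on its mean over 12 samples, ran from -0.04 to 0.08 in DMSO and from -0.0045 to 0.063 in RA. In LE135 it ran from -0.19 to 0.165, with LE135 4 highest. ALAS2 is part of this mean, so the mean is no independent reading beside ALAS2. No globin or glycophorin gene was among the named probe sets. SLC4A1, partner of RHAG in the red cell membrane, was low in every sample (4.13 to 4.43), so it could show little. FECH, SPTB, SLC25A37, NFE2, TFRC, TAL1 and ANK1 also lay below the array medians (6.615 to 6.7) in every sample. The median over the list is therefore partly set by dim genes. In such bulk samples fewer red cells and less RNA per cell cannot be told apart, and the part of blood content in the RHAG values was not tested.

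**Figure D2:**
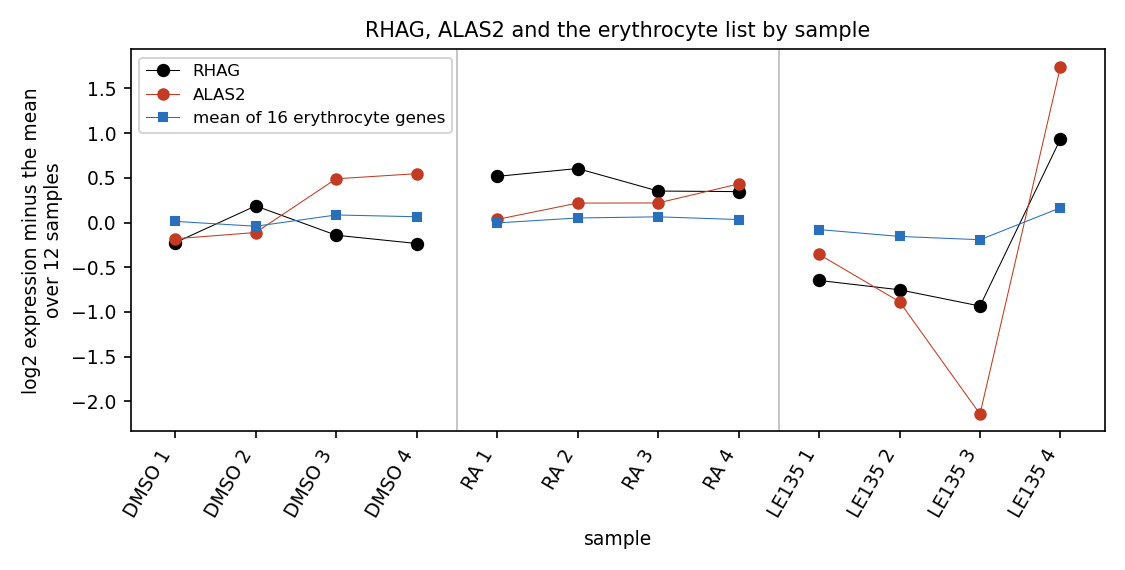
Log2 expression of RHAG, ALAS2 and the mean of 16 erythrocyte genes (ALAS2 among them) in each sample, each centred on its mean over 12 samples. Thin lines join samples of a treatment and imply no order. RHAG and ALAS2 are lowest in LE135 3 and highest in LE135 4, while the list mean stays between -0.19 and 0.165.

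The third Rh glycoprotein gene on the array was RHCG, the apical partner of RHBG in mammalian kidney, with 3 probe sets that disagreed. The probe set axo15713-f_at read 7.81, 7.81, 8.05 and 6.65 in DMSO samples 1 to 4. It read 9.76, 9.48, 9.83 and 9.42 in RA and 8.96, 9.0, 9.31 and 8.62 in LE135. The 3 treatments did not overlap, with RA above LE135 (as in 3.75% of all probe sets) and LE135 above DMSO, and DMSO 4 was again far below the other DMSO samples. It rose by 2.04 in RA (SE 0.27, limma adjusted p = 0.0029) and by 1.39 in LE135 (SE 0.27, adjusted p = 0.0224), where 1.62% and 0.893% of all probe sets rose. The difference of RA from LE135 was 0.65 (SE 0.27, adjusted p = 0.599). The LE135 call was lost without LE135 1, LE135 2 or LE135 3 (adjusted p = 0.0643, 0.0543 and 0.0653) and when RA samples were left out of the fit (adjusted p = 0.109).

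The other RHCG probe sets did not pass in any comparison. axo15715-r_at, the RHCG probe set with the highest signal, differed from DMSO by -0.16 in RA (SE 0.20, adjusted p = 0.803) and by 0.33 in LE135 (SE 0.20, adjusted p = 0.548). axo15716-f_at differed by -0.34 in RA (SE 0.15, adjusted p = 0.314) and by 0.41 in LE135 (SE 0.15, adjusted p = 0.231). Without DMSO 4 its LE135 difference was 0.55 and passed (adjusted p = 0.0403). Without DMSO 4 and LE135 4 together it was 0.59 and passed (adjusted p = 0.0350), and RA was lower than LE135 by -0.80 (adjusted p = 0.0480).

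Measured as the root mean square (RMS) difference between profiles over the 12 samples, each centred on its own mean, axo15713-f_at lay 0.26 from RHBG and ranked the 3rd nearest of 20034 probe sets. The other RHCG probe sets, at 0.83 and 0.95, ranked 11868 and 18218. Under LE135 the difference from DMSO was above 0 in all 3 probe sets, and under RA it was above 0 in axo15713-f_at alone, with no call in the others. Whether the probes for RHBG and RHCG share target sequence was not tested.

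**Figure D3:**
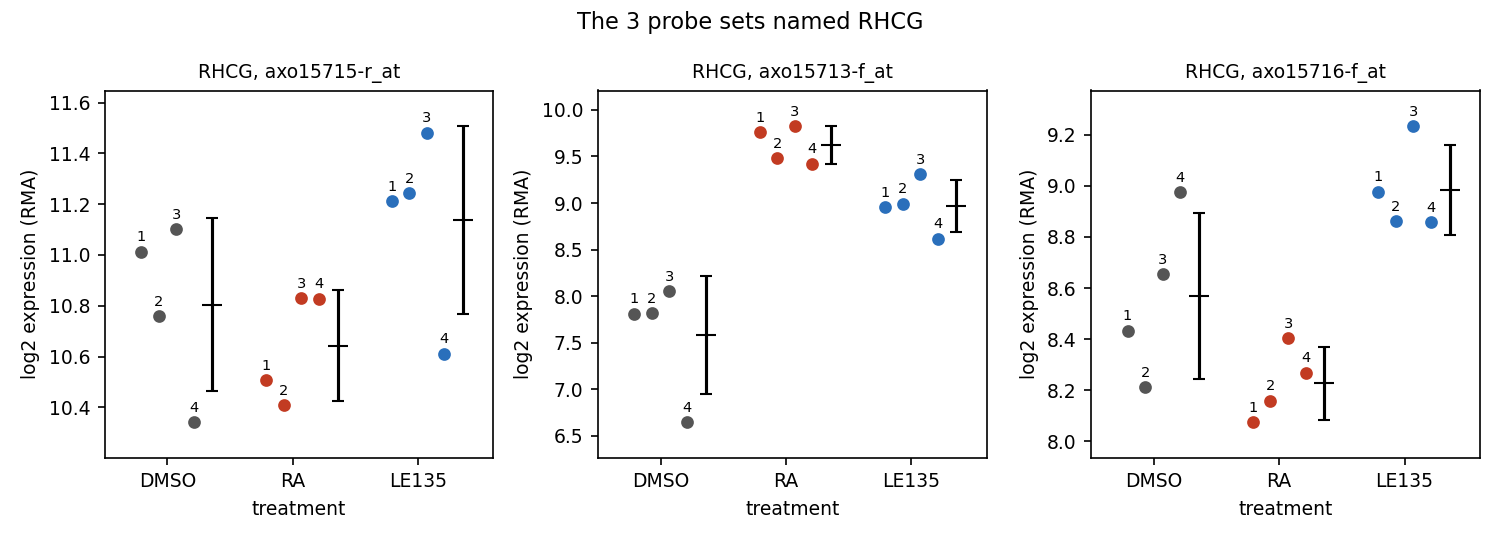
Log2 expression in each sample for the 3 probe sets annotated as RHCG, with sample numbers beside the points and the mean ± SD of each treatment (n = 4). In axo15713-f_at both drug groups lie above DMSO, and in axo15715-r_at and axo15716-f_at the RA mean lies below the DMSO mean.

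By the same measure, the named genes nearest to RHBG among 8638, with 1 probe set a gene, were FAP, PAX6, B3GNT5, ADAM9, SDR16C5 and CRABP2. FAP, a cell surface protease of activated fibroblasts, was nearest at 0.21, against a median of 0.82 over all genes and 0.80 for a flat profile. Its level was 8.32, 8.37, 8.21 and 7.49 in DMSO samples 1 to 4, 9.49 to 9.80 in RA and 9.42 to 9.62 in LE135. PAX6, an eye and brain transcription factor, lay at 0.25, the glycosyltransferase B3GNT5 at 0.27 and the membrane protease ADAM9 at 0.29. SDR16C5, which oxidizes retinol, lay at 0.30 and CRABP2, a carrier of retinoic acid, at 0.35. In each of these 6 genes, as in RHBG, DMSO 4 was the lowest of the 12 samples. They were chosen for likeness, and no test is attached to it.

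CYP26A1, the enzyme that breaks down retinoic acid and a classical RA target, differed from RHBG within DMSO. Its levels were 5.05, 8.32, 8.82 and 4.66 in DMSO samples 1 to 4, against 12.45 to 12.77 in RA and 12.10 to 12.54 in LE135. DMSO 1, low in CYP26A1, was level with DMSO 3 in RHBG. Both genes were lowest in DMSO 4.

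The named genes nearest to RHAG were MAMDC2 at 0.30, FHL1 at 0.30, VWC2L at 0.32, ADAMTS2 at 0.33, EDNRA at 0.34 and GPR182 at 0.34, against 0.56 for a flat profile. FHL1, a LIM protein of muscle, read 9.07, 9.02 and 8.87 in LE135 samples 1 to 3 and 10.11 in LE135 4. VWC2L read 9.35, 9.11 and 8.68 in LE135 samples 1 to 3 and 10.13 in LE135 4, and its second probe set, at 3.58 to 3.86 throughout, was low. In all 6 genes LE135 4 was the highest LE135 sample. These genes were chosen for likeness to RHAG over the same samples, which favours this, and no test is attached to it. ALAS2, whose swings were larger, ranked 2425 at 0.56, about as far from RHAG as a flat profile. EDNRA, an endothelin receptor, was the 1 gene of the 6 that passed a comparison, rising in RA by 0.81 (adjusted p = 0.0199). That call was lost without DMSO 1, RA 1, RA 2 or RA 4 (adjusted p = 0.0542 to 0.0708).

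**Figure D4:**
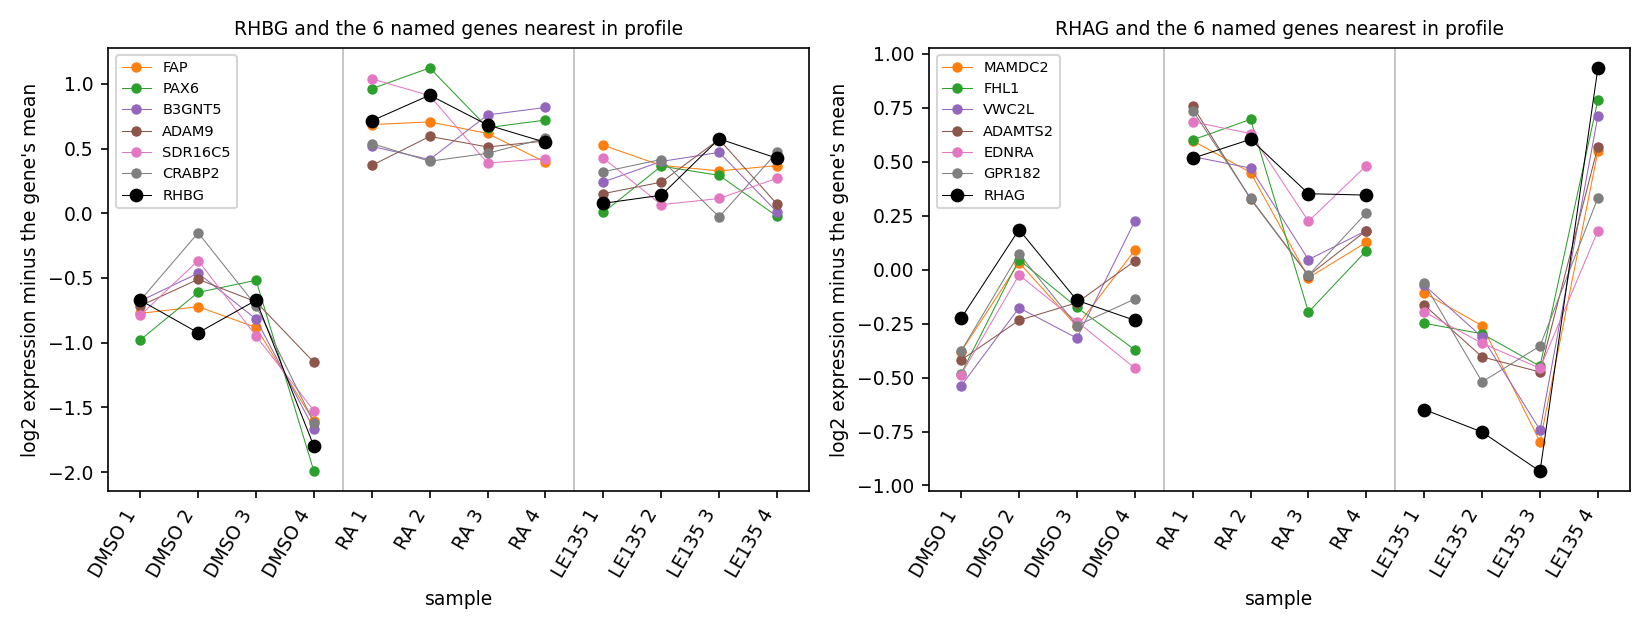
Log2 expression centred on each gene's mean over 12 samples, for RHBG (left) and RHAG (right) in black with the 6 named genes nearest in profile. Thin lines join samples of a treatment and imply no order. The RHBG set is lowest in DMSO 4, and the RHAG set has LE135 4 as its highest LE135 sample. The genes were chosen for likeness, which favours such shared extremes.

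Genes that make or use ammonia mostly stayed below the threshold. Of 25 measured genes of ammonia and glutamine metabolism, 2 rose and 0 fell under RA, where 2.64% of all probe sets changed, and 1 rose and 0 fell under LE135, where 2.09% did. ASL, argininosuccinate lyase of the urea cycle, rose by 1.06 in RA (SE 0.16, adjusted p = 0.00588) and by 1.14 in LE135 (SE 0.16, adjusted p = 0.00405). GOT2, the mitochondrial aspartate aminotransferase, rose in RA by 0.56 (SE 0.10, adjusted p = 0.0179), a call lost without RA 1 (adjusted p = 0.0602), and differed by 0.31 in LE135 (adjusted p = 0.187). The list median was 0.015 in RA and -0.01 in LE135, with -0.01 and 0.01 over all probe sets.

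The proton pump and exchangers that accompany Rh proteins in acid-secreting epithelium showed 1 change. Of 17 measured subunits of the vacuolar proton pump none passed under RA (smallest adjusted p = 0.0678) or LE135 (0.479). Of 18 carbonic anhydrases and acid-base exchangers none passed under RA and 1 rose under LE135. This was SLC4A4, a sodium bicarbonate cotransporter, at 1.09 (SE 0.23, adjusted p = 0.0359), against 0.95 in RA (SE 0.23, adjusted p = 0.0559). Its LE135 call was lost on leaving out any of 8 single samples (adjusted p up to 0.0920), and other SLC4A4 probe sets, at 0.02 and 0.32, did not pass. The RA difference of SLC4A4 passed in 5 of 19 alternatives, among them without DMSO 3 (1.09, adjusted p = 0.0481) or DMSO 4 (0.70, adjusted p = 0.0486).

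Of 19 genes of ion-transporting epithelium, 1 rose and 1 fell under RA and 2 rose under LE135, where 2.64% and 2.09% of all probe sets changed. The list also holds uroplakins and the epithelial transcription factors EHF and ELF3, which are not ion transporters. The genes that rose, UPK3A and EHF, were of these kinds. UPK3A, a uroplakin of the urothelial surface, rose by 1.19 in RA (SE 0.13, adjusted p = 0.00125) and by 1.65 in LE135 (SE 0.13, adjusted p = 0.000168), while its other probe sets, from -0.39 to 0.19, did not pass. The epithelial transcription factor EHF rose in LE135 by 2.18 (SE 0.33, adjusted p = 0.00667) and differed by 1.38 in RA (adjusted p = 0.0507). That RA difference passed in 6 of 19 alternatives, among them without RA 2 (1.62, adjusted p = 0.0347) or LE135 4 (1.38, adjusted p = 0.0404). AQP3, a water and glycerol channel, fell in RA by 1.53 on the log2 scale (SE 0.31, adjusted p = 0.0244) and differed by -1.26 in LE135 (adjusted p = 0.0620). The AQP3 call under RA was lost without any 1 of the RA samples (adjusted p up to 0.0794). Its LE135 difference passed without DMSO 4 (-0.88, adjusted p = 0.00806), without DMSO 4 and LE135 4 (-0.97, adjusted p = 0.00299) and with the replicate block (adjusted p = 0.0428). The second AQP3 probe set stood at 0.06.

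None of 5 measured partners of RHAG in the red cell membrane (SLC4A1, ANK1, SPTB, EPB41 and ADD2) passed under RA (smallest adjusted p = 0.334) or LE135 (0.383), nor did any of the 16 erythrocyte genes (0.135 and 0.112). FOXI1, ATP6V1B1, GLUL, CA2 and RHCE were not among the named probe sets. Over these lists and RHCG, read by its brightest probe set, 4 of 97 genes passed under RA, or 4.12%, and 4 under LE135. Over all probe sets 2.64% and 2.09% passed. None of the 97 genes passed between RA and LE135, where 0.02% of all probe sets did. All probe sets include unnamed and dim ones, while list genes are named and read by their brightest probe set. The shares are therefore not on a like basis, here and for each list.

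**Figure D5:**
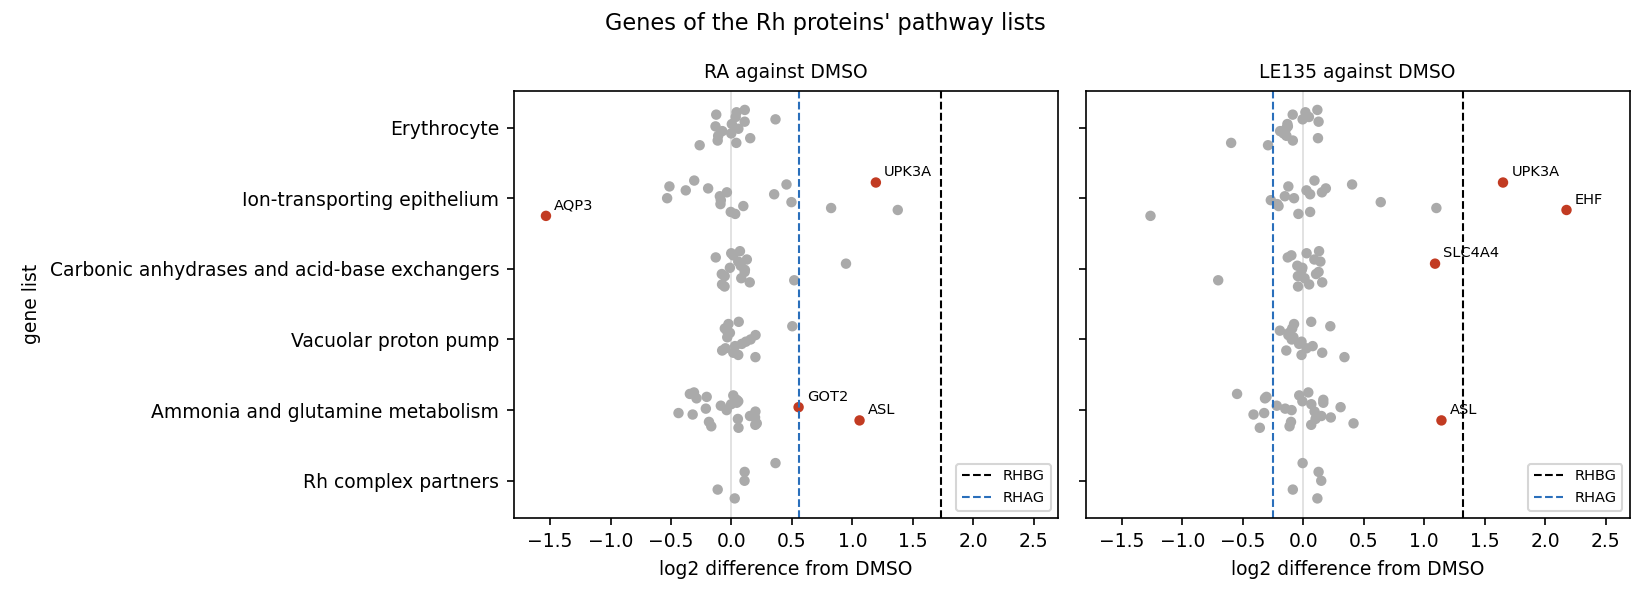
Log2 difference from DMSO for each gene (points) of 6 lists, in RA (left) and LE135 (right). Genes past the threshold are red and named, and dashed lines mark RHBG at 1.73 and 1.32 and RHAG at 0.56 and -0.25. Most points lie near 0, and RHBG lies to the right of all points but EHF and UPK3A under LE135.

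Retinoic acid response genes, a list chosen with results of these samples known and so no independent evidence of direction, rose in 10 of 18 under RA and 8 of 18 under LE135, where 1.62% and 0.893% of all probe sets rose, and none fell. The smallest p under RA were those of the corepressor NRIP1 (1.36), the proximal limb factor MEIS1 (0.94), the retinaldehyde reductase DHRS3 (2.25) and the receptor RARG (0.70). Under LE135 they were those of CYP26A1 (5.55), DHRS3 (1.75), MEIS1 (0.59) and ALDH1A3, which makes retinoic acid (1.26). Each of these 4 LE135 calls was lost in 1 of 19 alternatives, the fit of only the 8 compared samples. The adjusted p was then 0.0502 for CYP26A1, 0.0505 for DHRS3, 0.0597 for MEIS1 and 0.0720 for ALDH1A3. The other 4 calls under LE135 depended on single samples. Of 19 alternatives NRIP1 was lost in 14 (adjusted p up to 0.140), among them leaving out any 1 sample but LE135 4. CRABP2 was lost in 12 (up to 0.179), among them leaving out any 1 sample but DMSO 2 or DMSO 4. RARG was lost in 11 (up to 0.171), among them leaving out DMSO 1, DMSO 3, LE135 1, LE135 2, LE135 3 or any RA sample. A second RARG probe set, at 0.08 under RA and 0.06 under LE135, did not pass (adjusted p = 0.854 and 0.9025). SDR16C5 was lost in 6 (up to 0.0884), among them leaving out DMSO 1, DMSO 3, LE135 1, LE135 3 or LE135 4. NRIP1 was the 1 gene of the list that passed between RA and LE135, higher in RA by 0.91 (adjusted p = 0.0184). That call was lost without RA 2, RA 3, RA 4 or LE135 1 (adjusted p = 0.0571 to 0.123).

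Markers of the tissues that could carry RHBG were set beside it, with 2.64% of all probe sets changed under RA and 2.09% under LE135. Of 21 epidermis markers 0 rose and 1 fell under RA, the membrane protease ST14. Under LE135 0 rose and 5 fell, ST14, TP63, the transglutaminase TGM1 and the junction proteins JUP and DSC2. Of 19 alternatives the LE135 call was lost in 3 for ST14, 5 for TP63, 10 for TGM1 and 12 each for JUP and DSC2, and the RA call of ST14 in 5. A second TP63 probe set differed by -0.72 under LE135 (adjusted p = 0.207). Leaving out DMSO 1 or LE135 1 lost all 5 calls under LE135 (adjusted p = 0.0505 to 0.137). Without LE135 4, TGM1, JUP and DSC2 passed as lower under RA too (adjusted p = 0.0473, 0.0315 and 0.00658). The mean of the 21 markers, centred by gene, ran from 0.05 to 0.35 in DMSO, from -0.02 to 0.02 in RA and from -0.45 to -0.01 in LE135, the reverse of the RHBG order of DMSO against both drugs. Of 15 connective tissue fibroblast markers 2 rose under RA, FAP and DCN, and FAP rose under LE135. The mean of the 15 markers, centred by gene, ran from -0.45 to 0.01 in DMSO, -0.0012 to 0.33 in RA and -0.12 to 0.12 in LE135. Averaged by treatment it was -0.24, 0.20 and 0.04, in the RHBG order, with overlapping samples. FAP, the named gene nearest to RHBG, is part of this mean. Among 10 skeletal muscle markers DES rose under RA. The mean of these 10 markers, centred by gene, varied widely within treatments. It ran from -1.97 to 0.55 in DMSO, -1.24 to 1.21 in RA and -0.38 to 0.66 in LE135. As in RHBG, DMSO 4 was the lowest of all samples, but the treatments overlapped. Among 9 macrophage and neutrophil markers CYBA rose and SPI1 fell under LE135. Of 19 alternatives the FAP calls held in all, and the others were lost in 15 (DCN), 6 (DES), 11 (CYBA) and 11 (SPI1). Other DES probe sets, at 0.85 and 0.03 under RA, did not pass. None of 10 endothelium, 2 lymphocyte, 4 Schwann cell and nerve or 5 pigment cell markers passed. The part of tissue makeup in the RHBG values was not tested.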

How the data were processed

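The authors deposited log2 expression values for 20080 probe sets from 12 Affymetrix arrays, made with RMA per the submitters' processing notes (version not stated there). Biotin-labelled total RNA was hybridised, per the labels' protocols. The 45 control probe sets were left out, and no detection filter was applied. Gene names came from the platform annotation, in which 10951 probe sets had 1 symbol, 0 several and 9084 none. All 8639 symbols were in the RefSeq gene table, which gave names and gene order, with no coordinates printed. The probe set with the highest mean stood for a gene.

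A single linear model with a mean per treatment was fitted to 20035 probe sets in limma 3.58.1 (R 4.3.3), with moderated contrasts and Benjamini-Hochberg adjustment over all of them at 0.05. The number of arrays limits precision. SE are from this fit, and rose, fell, changed or passed are used only of its calls. It was tested on simulated data.

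RHBG, RHAG and the gene lists were chosen with earlier results of these data known. Named were these 2 genes and up to 4 genes per list with the smallest p among those past the threshold. RHCG, SLC4A1, GLUL, CA2, FOXI1, ATP6V1B1, HBA1, HBB, ALAS2 and CYP26A1 were looked up whatever their values, as were the 6 genes nearest each member by RMS difference. BCAN, PRRX1, TP63, ST14, TGM1, JUP, DSC2, DCN, DES, CYBA and SPI1 were named after their values were seen. Samples share the numbers 1 to 4 across treatments, and the main fit has no block. Alternatives were 2 scalings, a filter on dim probe sets, another prior, fewer samples, a block by number, the mean over a gene's probe sets and a plain ANOVA.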

Additional observations from a re-analysis of the deposited data

Results flagged for a closer look

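Of 207 sets of 4 samples checked for a sample far from the others, 9 passed the limit of Dixon's test at 95%, or 4.35%. The test takes the gap to the nearest sample as a share of the range, and chance gives about 1 in 20. Many sets belong to genes chosen for likeness, for small p or with their values known, so that rate is no yardstick for this count. RHAG in LE135, with LE135 4 at 8.03 and the other samples at 6.16 to 6.45, had a ratio of 0.847, given as a description since its values were known when the gene was chosen. FHL1, chosen for its likeness to RHAG over these samples, had LE135 4 at 10.11 above 8.87 to 9.07 in LE135 (0.839). The RHCG probe set axo15713-f_at in DMSO had DMSO 4 at 6.65 below 7.81 to 8.05 (0.83), and the mean of carbonic anhydrases and acid-base exchangers had DMSO 4 at -0.28 below 0.01 to 0.05 (0.885). The other 5 were GOT2 in DMSO, with DMSO 2 low (0.86), the dim AQP3 probe set in DMSO, with DMSO 2 low (0.84), a second RARG probe set in RA, with RA 4 high (0.836), a second SLC4A4 probe set in RA, with RA 3 high (0.831), and the retinoic acid response mean in RA, with RA 3 low (0.843).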

How the results depend on the processing

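The RHBG and RHAG differences kept their direction under all 16 alternatives of each, but their size moved. The replicate block, and leaving out a sample of the treatment outside a comparison, could not change a difference. Those alternatives are therefore no check on it. Without DMSO 4 and LE135 4 the RHAG difference of LE135 from DMSO was -0.72, against -0.25 in the main fit. That of RA from LE135 was 1.23, against 0.80. For RHBG the difference of LE135 from DMSO was then 1.02, against 1.32. Leaving out 1 sample gave ranges of 1.47 to 1.85 (RHBG, RA against DMSO), 1.06 to 1.44 (RHBG, LE135 against DMSO), 0.33 to 0.50 (RHBG, RA against LE135), 0.51 to 0.66 (RHAG, RA against DMSO), -0.67 to -0.05 (RHAG, LE135 against DMSO) and 0.61 to 1.23 (RHAG, RA against LE135). No other probe set of either gene existed to replace the 1 used. Over all probe sets, 537 differed among the treatments, 528 between RA and DMSO, 418 between LE135 and DMSO and 4 between RA and LE135. Without DMSO 4 and LE135 4 these were 1478, 1530, 1027 and 43. In fits of the 8 compared samples the last 3 counts were 340, 111 and 10, and a plain ANOVA gave 310 among the treatments. Leaving out 1 sample gave 261 (without RA 1) to 700 (without DMSO 4) among the treatments, 231 (without RA 1) to 671 (without LE135 4), 220 (without LE135 1) to 742 (without DMSO 4), and 1 (without RA 2) to 13 (without DMSO 4). Of 115 genes on the pathway lists 14, 12 and 1 passed in the 3 comparisons, 10 to 17, 7 to 14 and 0 to 2 on leaving out 1 sample. They were 3 under LE135 in the fit of 8 samples and 2 between RA and LE135 without DMSO 4 and LE135 4. Beyond fewer samples the cause was not tested.

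Samples sharing a number deviated together, with correlations above 0.1, in 7 of 12 pairs (-0.175 to 0.607). The highest was that of DMSO 4 with LE135 4, the samples least like the rest of their treatment. The next was 0.322, for DMSO 3 with LE135 3. In all, 1 of 12 samples correlated best with its own number in both other treatments, so the numbers were not taken as pairs. With the replicate block the count between RA and LE135 was 11, and EHF and SLC4A4 passed under RA (adjusted p = 0.0294 and 0.0499), as did AQP3 under LE135 (0.0428). With the block the calls of CRABP2 (0.0639), TGM1 (0.0847) and JUP (0.0569) under LE135 and of DCN under RA (0.0823) were lost, and no other call of a named probe set changed. Of 48 calls of named probe sets other than RHBG and RHAG, 20 held under each alternative run and 28 were lost in at least 1, and none reversed. Many of these genes were named for small p, for likeness or after their values were seen. The counts therefore describe chosen genes only. PAX6 under LE135 (1.19, adjusted p = 0.0500) was lost in 13 of 19. Dim probe sets such as SLC4A1 limit what can be seen.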

Other observations

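In RefSeq's axolotl gene table BCAN, which encodes the proteoglycan brevican, is the second protein-coding gene from RHBG. Of the 3 protein-coding genes on each side of RHBG, 3 of the 6 were measured. BCAN stood at 7.94, 8.20, 7.88 and 6.43 in DMSO samples 1 to 4, at 9.87 to 10.67 in RA and at 9.81 to 10.58 in LE135, with DMSO 4 lowest as in RHBG. It rose by 2.68 in RA (SE 0.34, limma adjusted p = 0.00261) and by 2.49 in LE135 (SE 0.34, adjusted p = 0.00390), while its second probe set, at 4.38 to 4.88 in all samples, did not pass. MEF2D, the next gene on the other side, differed by 0.04 and 0.01 (adjusted p = 0.933 and 0.982), and IQGAP3 beyond it by -0.01 and 0.10 (adjusted p = 0.971 and 0.727). None of the 6 nearest genes of RHAG was measured.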
